A study of Mus musculus with 10 samples.

Results

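Ion channel genes were compared between visual cortex that had lost its main eye input and visual cortex that had kept it. The members were all probe sets outside the array's controls whose single annotated gene symbol begins with Kcn, Scn (but not Scnn), Cacn (but not Cacng2), Hcn or Clcn. They comprised 68 of the 8251 genes that the array names by 1 symbol, read by 88 of its 12422 probe sets. One of the genes, Scnm1, is named for its effect on a sodium channel transcript but encodes a splicing factor, which leaves 67 channel genes. The rule used names only and no measured value.

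All 10 samples were visual cortex of wild-type C57Bl6 mice from which one eye had been removed at postnatal day 14. The cortex was dissected on postnatal day 18, after 4 days. Contralateral cortex, opposite the missing eye, gave the 5 deprived samples, and ipsilateral cortex gave the 5 non-deprived ones, with 1 array per sample. The labels name 4 mice and pooled samples and do not say which animals gave which sample, so the p-values measure the spread between these samples, which may be partly technical. No group with both eyes is among them, and the non-deprived hemisphere also lost the small uncrossed input of the removed eye.

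Voltage-gated channels open when the membrane potential changes and so shape the action potential. Sodium channels start the spike, Kv potassium channels end it and set the firing rate, and calcium channels couple it to transmitter release and to signals that reach the nucleus. Inward rectifier and two-pore-domain potassium channels set the resting potential, HCN channels carry a current that opens on hyperpolarisation, and ClC proteins move chloride across the surface membrane or into endosomes and lysosomes. Neurons can adjust several of these genes when their input changes, and many of the channels mature in the cortex during the postnatal weeks in which these mice were studied.

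Values are MAS5 signals in arbitrary units, 1 per probe set and array, and signals of different genes were not set against each other. Where a pair of means is given, that of deprived cortex comes first. Array medians lay between 191 and 209. Fos, which neuronal activity induces, had signals of 2069 ± 424 against 3792 ± 629 (deprived against non-deprived, SD, n = 5 each), with groups that did not overlap and an adjusted p of 0.105 in limma. Of the 88 probe sets, 49 for 39 genes lay above the signal filter and were tested, or 55.7% against 60% of all probe sets. The filter kept probe sets whose mean over the 10 arrays, taken on the log2 scale, was at or above the 40th percentile, which corresponds to a signal of 115. Differences are deprived minus non-deprived on the log2(signal + 16) scale, with the standard error (SE) of limma. Limma is a linear model fitted to all tested probe sets together. On this scale 0.58 is a 1.5-fold change in signal + 16. It is a larger change in the signal itself, most so for dim probe sets.

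No channel probe set passed an adjusted p of 0.05 in limma, and none of the 7453 tested probe sets did (0%) in this fit, which has no term for the replicate number. The smallest adjusted p among the channels was 0.992. Of the 49 channel probe sets, 2 had an unadjusted p under 0.05, which is 4.08% beside 4.79% of all tested probe sets. Both, Kcnc1 and Kcnab1, were higher in deprived cortex; over all tested probe sets 2.43% were higher and 2.36% lower at this p. Counted by probe set, the channels thus held no larger share of such values than the array as a whole. Counted by gene, the same 2 are 5.13% of the 39 genes, slightly above the 4.79%. Of the 49 estimates on the log2 scale, 24 were above and 25 below 0, where 52% of all tested probe sets were above it. With 1 probe set per gene, the 39 genes had a median difference of 0.01 beside 0.0066 over all tested probe sets. Their quartiles were -0.06 and 0.13, and those of all tested probe sets -0.08 and 0.10.

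**Figure D1:**
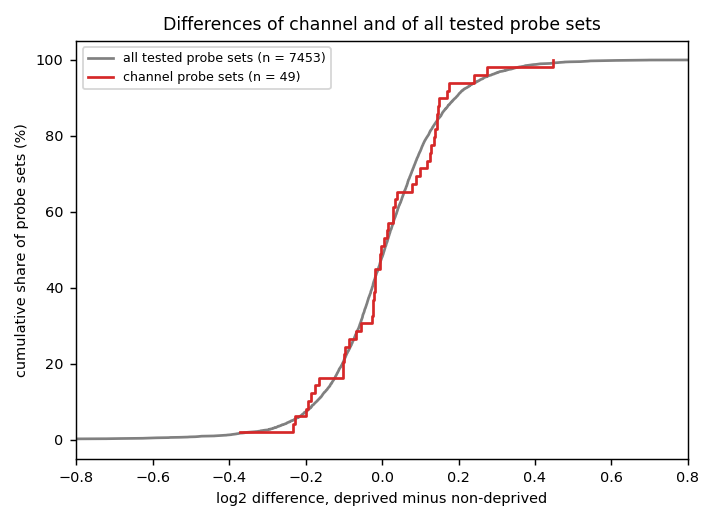
Cumulative share (%) of probe sets against the log2 difference, deprived minus non-deprived, for the 49 channel probe sets (red) and all 7453 tested ones (grey), with the x axis limited to 0.8 either way. The 2 curves run together around a median near 0, and the channels reach from -0.37 to 0.45.

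The data bounded most of the tested channel probe sets closely. For 43 of the 49 probe sets, the 95% interval of the difference lay within a 1.5-fold change either way, a share of 87.8% beside 85.8% of all tested probe sets. For 48, all but Clcn1, it lay within a 2-fold change, as it did for 98% of all tested probe sets. The probe sets whose interval reached past 1.5-fold were those of Kcnc1, Kcnk1, Kcnj11 and Clcn1 and second probe sets of Hcn2 and Kcnj9. These intervals are for single probe sets and are not widened for the number of probe sets. They rest on the spread between these samples, which may be partly technical. Intervals of the 39 channel probe sets below the filter, from a fit without it, had a median width of 1.23. That of the tested ones was 0.55. Within groups, the SD of the log2 values had a median of 0.21 over the channel probe sets and of 0.20 over all tested ones.

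**Figure D2:**
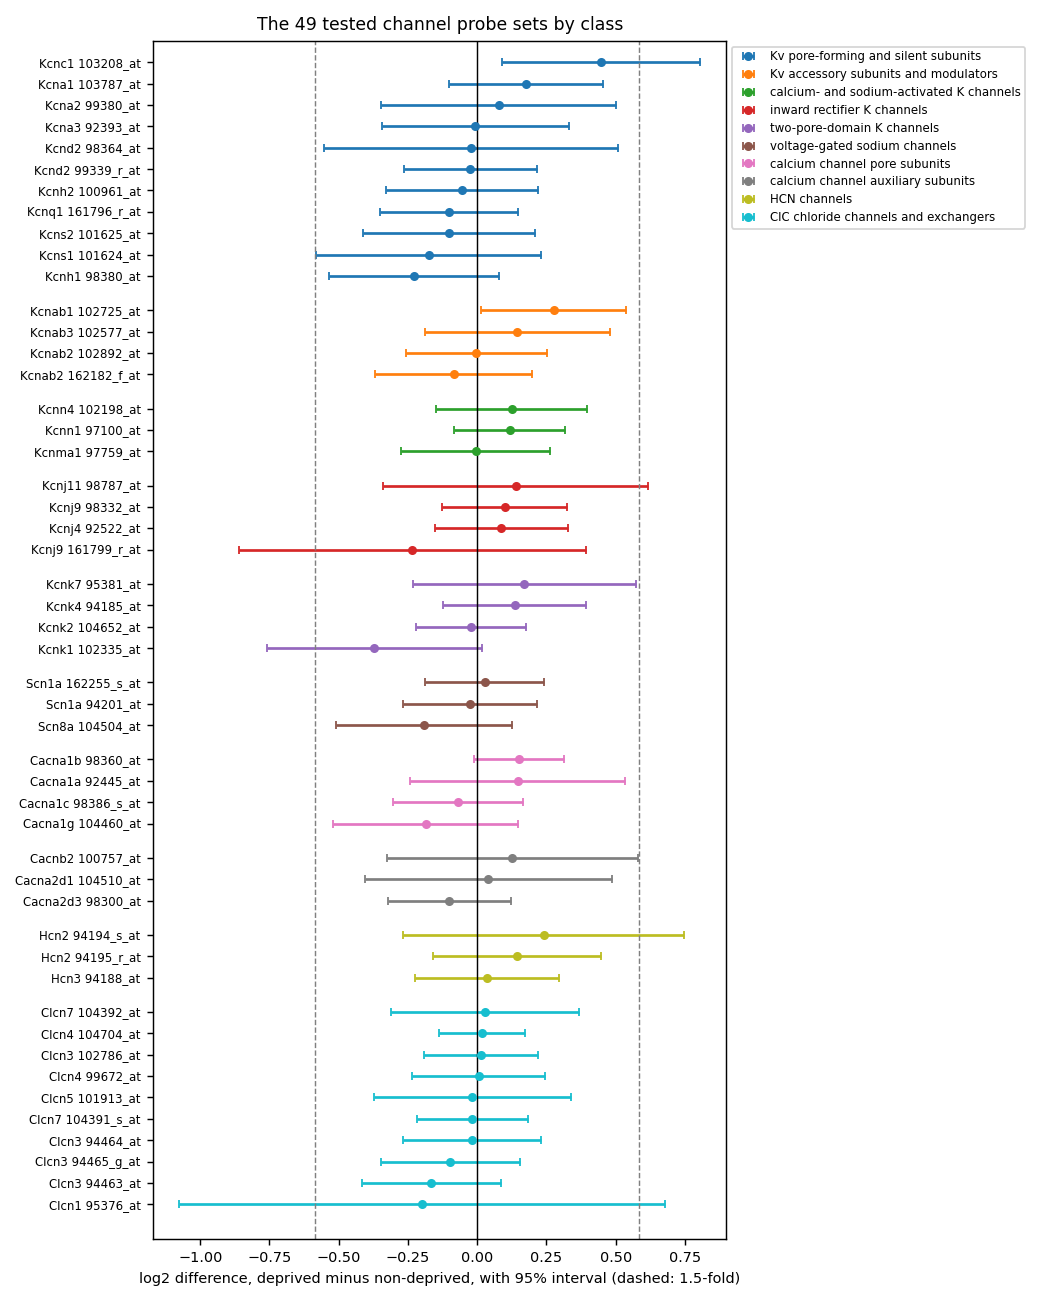
Log2 difference (x axis, deprived minus non-deprived) with its 95% interval for each of the 49 tested channel probe sets, grouped and coloured by class; dashed lines mark 1.5-fold. The intervals of Kcnc1 and Kcnab1 lie above 0 and all others include it.

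Pore-forming subunits of Kv channels were the largest class, with 16 genes, of which 10 had a tested probe set. Of these 10 genes, 3 had a log2 difference above 0 and 7 one below it, with a median of -0.04. Kcnc1, which encodes Kv3.1, the fast delayed rectifier that lets interneurons fire at high rates, had the smallest p of all channels. Its signals were 130.5, 150.4, 171, 169.7 and 162 on the 5 deprived arrays and 135, 135, 111, 103 and 78.0 on the 5 non-deprived arrays. Of the deprived arrays, 4 lay above all non-deprived ones, and the remaining one, replicate 1, lay among them. The means were 157 ± 16.9 against 112 ± 23.8 (SD, n = 5 each), a difference of 0.45 ± 0.17 (SE) with an unadjusted p of 0.0183 and an adjusted p of 0.992 in limma. These signals are near the filter at 115. The non-deprived mean is below it, so Kcnc1 passed the filter through its higher deprived arrays. Without non-deprived replicate 5, the array with the lowest Kcnc1 signal, the difference was 0.34 and its limma unadjusted p was 0.0553.

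The promoters of 3 channels are shown, that of Kcnc1 because it had the smallest p, that of Cacna1b, the channel whose groups did not overlap, and that of Clcn4, which had the smallest SE and holds a cyclic AMP response element. They are the 250 bases before a start in RefSeq (GRCm38.p6), were chosen after the values were seen and were not measured here. Capitals mark 6 motifs searched on both strands: the GC box GGGCGG, the cyclic AMP response element TGACGTCA, the AP-1 site TGACTCA, the EGR site GCGTGGGCG, the E-box CACGTG and the TATA box TATAAA.
Kcnc1, chr7:46396218-46396467, plus strand: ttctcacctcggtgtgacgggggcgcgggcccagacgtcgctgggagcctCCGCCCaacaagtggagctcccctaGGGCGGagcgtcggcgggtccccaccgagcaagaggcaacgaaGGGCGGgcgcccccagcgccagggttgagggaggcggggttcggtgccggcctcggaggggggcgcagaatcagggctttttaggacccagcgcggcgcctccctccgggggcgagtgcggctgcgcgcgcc
Cacna1b, chr2:24763153-24763402, minus strand: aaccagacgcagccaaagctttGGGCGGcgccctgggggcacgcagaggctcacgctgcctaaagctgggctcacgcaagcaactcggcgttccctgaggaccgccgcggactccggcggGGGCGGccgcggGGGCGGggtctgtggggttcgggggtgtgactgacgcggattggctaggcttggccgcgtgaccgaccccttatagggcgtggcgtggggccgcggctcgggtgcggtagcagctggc
Clcn4, chr7:7299558-7299807, minus strand: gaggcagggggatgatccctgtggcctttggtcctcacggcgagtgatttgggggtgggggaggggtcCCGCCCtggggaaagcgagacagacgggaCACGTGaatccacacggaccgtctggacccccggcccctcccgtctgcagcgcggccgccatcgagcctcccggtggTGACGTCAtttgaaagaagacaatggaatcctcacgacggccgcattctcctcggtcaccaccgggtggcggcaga

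Pvalb and Syt2, which mark the same interneurons, had estimates on the same side of 0 as Kcnc1. Pvalb, the calcium buffer parvalbumin, had signals of 2654, 2643, 2592, 3216 and 2750 on deprived and 2353, 2574, 2685, 2175 and 2436 on non-deprived arrays. Its difference was 0.18 ± 0.08 (SE; limma unadjusted p of 0.0536, adjusted p = 0.992). Syt2, a synaptotagmin of their terminals, had one of 0.29 ± 0.10 (limma unadjusted p of 0.0139, adjusted p = 0.992). Over 5 interneuron markers without Kcnc1, 3 had log2 differences above 0 and 2 below it (Gad1 at -0.04 and Gad2 at -0.11). Over all tested probe sets, 52% were above 0. The summed signal of the 5 markers ran from 8425 to 10049 on deprived and 7993 to 9179.7 on non-deprived arrays. Their part in the Kcnc1 value was not tested, and in tissue RNA a change in the number of cells of a type cannot be told apart from a change in RNA per cell.

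The Kv1 genes lay on both sides of 0 or close to it. Kcna1, the axonal Kv1.1 subunit that limits excitability near the spike initiation site, had signals of 1220.5, 1382, 855, 1149 and 1329.5 on deprived and 1078, 1254, 912, 929 and 1038 on non-deprived arrays. The non-deprived range lay inside the deprived one, and the difference was 0.18 ± 0.13 (SE). Kcna2, its frequent partner Kv1.2, had 0.08 ± 0.20, and Kcna3, Kv1.3, had mean signals of 164 (deprived) and 163 (non-deprived). Kcnd2, the Kv4.2 subunit of the dendritic A-type current, had -0.02 ± 0.11 on its brighter probe set, of relaxed design rules. The interval was -0.26 to 0.22. Its plain probe set was dimmer, with a mean of 137 over the 10 arrays, and had -0.02 ± 0.25 with a wider interval of -0.55 to 0.51. Kcnh1, the ether-à-go-go channel Kv10.1, had signals of 317, 467, 362, 481 and 307 on deprived and 485, 494, 463, 354 and 456 on non-deprived arrays. Of the deprived arrays, 2 were below all non-deprived ones and the other 3 lay among them (difference -0.23 ± 0.14 SE, limma unadjusted p of 0.134). Kcnh2, the ERG channel Kv11.1, had -0.05 ± 0.13. The silent subunits Kcns1 and Kcns2, which form no channel alone and modify Kv2 channels, had -0.18 ± 0.19 and -0.10 ± 0.14. The Kcns1 values of deprived cortex ran from 70.6 to 156 and those of non-deprived cortex from 117 to 135, so the narrow non-deprived range lay inside the wide deprived one.

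Kcnq1, Kv7.1, known mainly from heart and epithelia, was read by a pair of probe sets that did not match in brightness. The one of relaxed design rules had signals of 538 and 577 and a difference of -0.10 ± 0.12 (SE), whereas the plain one lay below the filter at 37.0 and 28.4. Which of them reads the Kcnq1 transcript cannot be told from these values.

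Of the accessory Kv subunits, 3 genes were tested. Kcnab1, the beta1 subunit that gives Kv1 channels fast inactivation, had signals of 646, 639.8, 596, 637 and 536 on deprived and 636, 457, 388, 548 and 509 on non-deprived arrays. Of the deprived arrays, 3 were above all non-deprived ones, among which replicate 1 stood high. The means were 611 ± 46.6 against 507 ± 93.5 (SD, n = 5 each), a difference of 0.28 ± 0.12 (SE) with an unadjusted p of 0.0405 and an adjusted p of 0.992 in limma. With single arrays left out, the unadjusted p stayed under 0.05 in 3 of 10 cases. A second Kcnab1 probe set lay below the filter at 98.1 and 109. Kcnab3 had 0.14 ± 0.16 and Kcnab2, the beta2 subunit that carries Kv1 channels to the axon, had -0.0029 ± 0.12 with means of 2476 and 2490.4. Kcne1 and Kcne1l, small single-pass partners of Kv channels, were below the filter.

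**Figure D3:**
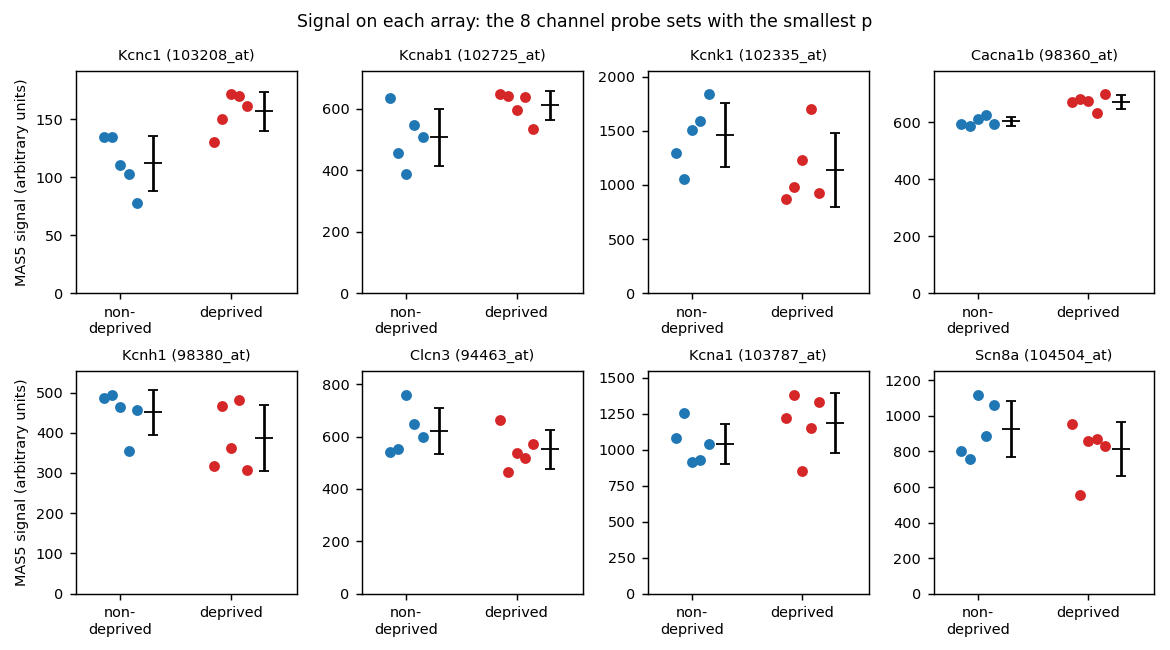
MAS5 signal (y axis, arbitrary units, from 0) on each of the 5 non-deprived (blue) and 5 deprived (red) arrays for the 8 channel probe sets with the smallest p; the black bar is the mean with its SD. The groups do not overlap for Cacna1b and overlap for the 7 others.

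Calcium-activated potassium channels end bursts and shape the afterhyperpolarisation. Kcnma1, the pore of the BK channel, had signals of 3609, 4476, 3121, 2602 and 3369 on deprived and 3399, 4075, 3127, 3238 and 3213 on non-deprived arrays. Replicate 2 was the highest array in each group, and the group difference was -0.0055 ± 0.13 (SE). Kcnn1, the small-conductance SK1, had 0.12 ± 0.09 and Kcnn4, an intermediate-conductance channel known mainly from blood cells and epithelia, 0.12 ± 0.13. Kcnmb1, the BK beta subunit of smooth muscle, and Kcnu1, a channel of sperm, lay below the filter.

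Of 11 inward rectifier genes, 3 were tested, and all 3 had log2 differences slightly above 0 on the brightest probe set of the gene. Kcnj4, Kir2.3 of forebrain neurons, had 0.09 ± 0.11 (SE) with an interval of -0.15 to 0.33. Kcnj9, the GIRK3 subunit of channels through which G-protein-coupled receptors hyperpolarise neurons, had signals of 905, 691, 740.1, 848 and 723 on deprived and 854, 685, 742, 628 and 734 on non-deprived arrays. The ranges overlapped over most of their width (0.10 ± 0.10 SE). A dimmer Kcnj9 probe set had the opposite sign, at -0.23 ± 0.29. Kcnj11, the Kir6.2 pore of ATP-sensitive channels, had 0.14 ± 0.22 with the wide interval of -0.34 to 0.62. Kcnj3 and Kcnj6, GIRK1 and GIRK2, had mean signals below the filter, deprived first, of 62.9 and 55.5 for Kcnj3 and 76.5 and 76.8 for the brighter probe set of Kcnj6. Kcnj8, the Kir6.1 subunit that marks pericytes, was below it as well, at 42.9 and 49.3.

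Of the two-pore-domain channels, which carry the resting potassium leak, 4 of 5 genes were tested. Kcnk1, TWIK-1, had the lowest estimate of all channels. Its signals were 868, 978, 1226, 1699.9 and 925 on deprived and 1291, 1059, 1509, 1594 and 1835 on non-deprived arrays. Of the deprived arrays, 3 lay below all non-deprived ones, while deprived replicate 4 was higher than 4 of the 5 non-deprived arrays. The means were 1139 ± 342 against 1457 ± 296 (SD, n = 5 each), a difference of -0.37 ± 0.18 (SE; limma unadjusted p of 0.0588, adjusted p = 0.992). Without deprived replicate 4 it was -0.53 (limma unadjusted p of 0.00416, adjusted p = 0.853). This was the lowest of the 10 values with single arrays left out, which ran up to -0.28. The limma unadjusted p was under 0.05 in 2 of these 10 cases. TWIK-1 is found in astrocytes as well as neurons; the summed signal of the 7 astrocyte markers measured ran from 18834 to 22943 on deprived and 19831 to 25855 on non-deprived arrays, and its part in the Kcnk1 value was not tested. Of the 7 markers, 4 had log2 differences above and 3 below 0, beside 52% above it over all tested probe sets. For 1 of them (Slc1a2, above) the limma unadjusted p was under 0.05, as for 4.79% of all tested probe sets. Kcnk2, the mechanosensitive TREK-1, had -0.02 ± 0.09 and an interval of -0.22 to 0.18. Kcnk4, its relative TRAAK, had 0.13 ± 0.12 and Kcnk7, which is not known to carry current alone, 0.17 ± 0.19.

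Sodium channel pores were measured for 6 genes, of which Scn1a and Scn8a were tested. Scn8a, Nav1.6 of the axon initial segment, had signals of 953, 552, 856, 869 and 830.1 on deprived and 805, 760.2, 1119, 886 and 1061 on non-deprived arrays. The groups overlapped apart from a low deprived replicate 2 and 2 high non-deprived arrays, and the difference was -0.19 ± 0.15 (SE). A second Scn8a probe set was near 0 throughout, with a mean of 4.35. Scn1a, Nav1.1, which interneurons depend on, had 0.03 ± 0.10 and -0.03 ± 0.11 on its 2 probe sets. Its brighter probe set, whose suffix marks shared sequences, had an interval of -0.19 to 0.24, so a 1.5-fold change either way lay outside it. The interval of its plain, dimmer probe set was -0.27 to 0.22. Scn3a, the early-life Nav1.3, and Scn7a, Scn9a and Scn10a, known mainly from glia, sensory ganglia or muscle, had means of at most 21.6 over the 10 arrays.

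Among calcium channels, 7 genes of pore subunits were measured and 4 tested. Cacna1b, the N-type pore Cav2.2 that triggers transmitter release, was the 1 channel probe set whose groups did not overlap. Its signals were 670.3, 679.5, 673, 631 and 697 on deprived and 594, 587, 611, 626 and 593 on non-deprived arrays, so that the lowest deprived array was just above the highest non-deprived one. The means were 670.3 ± 24.0 against 602 ± 15.8 (SD, n = 5 each), a difference of 0.15 ± 0.08 (SE), or 11.3% (limma unadjusted p of 0.0681, adjusted p = 0.992). A non-overlap in 1 of 49 probe sets is 2.04%, beside 0.953% of all tested probe sets, 0.483% with deprived cortex higher and 0.47% with it lower. Its SD within groups, 0.04 on the log2 scale, was the lowest of all tested channel probe sets, and limma's SE, which borrows from probe sets of like brightness, is wider than this SD alone would give.

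Cacna1a, the pore Cav2.1 of the separate P/Q-type channel that is also found at cortical terminals, had 0.15 ± 0.18 (SE) with overlapping groups. Cacna1c, the L-type Cav1.2 whose calcium signal reaches the nucleus, had -0.07 ± 0.11 and an interval of -0.30 to 0.17. Cacna1g, the T-type Cav3.1, had signals of 403, 337, 506, 279 and 273 on deprived and 405, 469.8, 407, 349 and 383 on non-deprived arrays. The deprived values were spread more widely, with 3 below and 1 above all non-deprived ones (-0.19 ± 0.16 SE). The auxiliary subunits that bring the pores to the membrane had small estimates, 0.04 ± 0.21 for Cacna2d1, -0.10 ± 0.10 for Cacna2d3 and 0.13 ± 0.21 for Cacnb2. Cacna1s and Cacng1, subunits of skeletal muscle, were below the filter, as were Cacna1e and Cacna1h.

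HCN channels were read for Hcn2 and Hcn3. Hcn2 had signals of 1849, 1287, 1730.5, 1847 and 2227 on deprived and 1955, 1402, 1317, 1558 and 1818 on non-deprived arrays on its brighter probe set, of relaxed design rules. The non-deprived range lay inside the deprived one (0.14 ± 0.14 SE). Its second probe set had 0.24 ± 0.24, an estimate that rests on a low non-deprived replicate 3 at 226, since it was -0.02 without that array. Hcn3 had 0.03 ± 0.12 with an interval of -0.22 to 0.29.

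Most ClC estimates lay close to 0. Clcn3 and Clcn4, chloride-proton exchangers of endosomes and vesicles, had 4 and 2 tested probe sets. Those of Clcn4 had 0.02 ± 0.07 and 0.0046 ± 0.11 (SE), with intervals of -0.14 to 0.17 and -0.23 to 0.24. The highest-signal Clcn3 probe set had means of 5801 ± 648 against 5749 ± 663 (SD, n = 5 each) and a difference of 0.01 ± 0.10. The 3 others had -0.02 ± 0.12, -0.10 ± 0.12 and -0.17 ± 0.12. Clcn7, the lysosomal exchanger, had -0.02 ± 0.09 and 0.03 ± 0.16, and Clcn5, its endosomal relative, had -0.02 ± 0.17. Clcn1, the chloride channel of skeletal muscle, was the exception in precision. Its signals were 118, 493, 248, 430.1 and 135 on deprived and 320.1, 463, 234, 115 and 443 on non-deprived arrays, a spread of 4.19-fold and 4.04-fold, with the widest interval of the 49 (-1.08 to 0.68). Of 7 muscle markers, 4 were below the filter, and the summed signal ran from 630.4 to 970.5 on deprived and 706 to 841 on non-deprived arrays. The other Clcn1 probe set had means of 39.3 and 29.9.

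Of the 18 genes with several probe sets, 8 had more than 1 that was tested. For 4 of these genes (Clcn4, Hcn2, Kcnab2 and Kcnd2) all tested probe sets had the same sign, and for the other 4 (Clcn3, Clcn7, Kcnj9 and Scn1a) the signs were mixed. The widest gap was 0.33, between the Kcnj9 probe sets, of which the dimmer one had -0.23 ± 0.29 (SE). For all 8 genes the intervals of their probe sets overlapped.

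**Figure D4:**
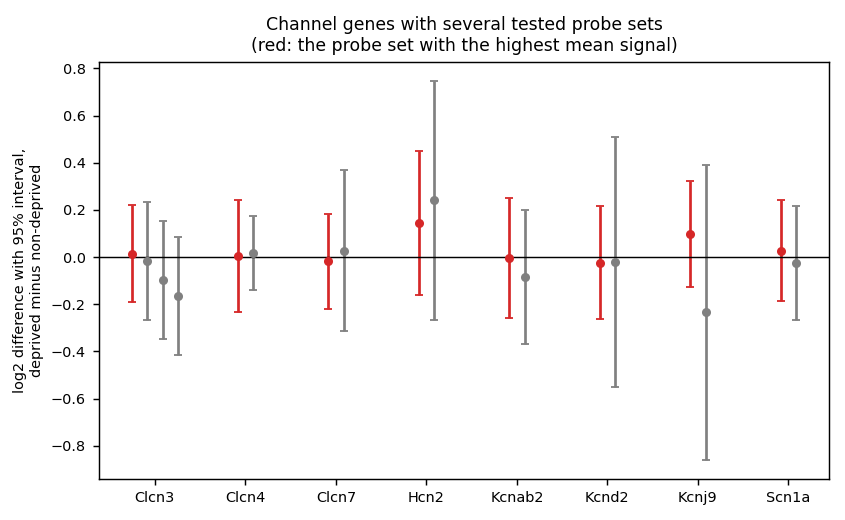
Log2 difference (y axis, deprived minus non-deprived) with its 95% interval for every tested probe set of the 8 genes with more than 1, ordered by mean signal from the left within each gene, the brightest in red. All intervals include 0.

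Below the filter lay 39 probe sets, and 29 genes had no other. A list of genes known chiefly from tissues other than cortex held 10 of the channel genes and is not complete, since Kcnq1, Kcnmb1, Scn7a and Scn9a are not in it. Of these 10, 7 had no tested probe set (Cacna1s, Cacng1, Kcne1, Kcnj1, Kcnj15, Kcnu1 and Scn10a) and 3 did (Clcn1, Kcnj11 and Kcnn4). Of the 57 channel genes that the list leaves out, 21 had none, among them Kcna4, Kcna5, Kcna6, Kcna7, Kcnd1, Kcnj2, Kcnj5, Kcnj12, Kcnk3 and Clcn2. Kcna4, an A-type Kv1 subunit, had means of 63.3 and 52.3, and Clcn2, a chloride channel of neurons and glia, had 119.8 and 123. No detection calls were used, so a dim signal was not read as an absent transcript. None of the 39 had groups that did not overlap. When the fit was repeated without the filter, 5 of 88 channel probe sets had an unadjusted p under 0.05, or 5.68%, against 5.03% of all 12422. The 3 that were added were all higher in deprived cortex. Kcnd3, the A-type subunit Kv4.3, had 147 ± 62.3 against 79.4 ± 28.4 (SD, n = 5 each; log2 0.74 ± 0.29 SE), Cacna1e, the R-type pore, had 46.4 ± 26.4 against 20.1 ± 2.78, and Scn3a had 30.1 ± 24.7 against 8.76 ± 2.13, each with an adjusted p of 0.959 in limma. Their groups overlapped. The brighter Cacna1e probe set went the opposite way, with 60.7 on average in deprived against 72.9 in non-deprived samples. Of all 39, 26 were higher, with a median of 0.08. Of the 4969 probe sets of the array below the filter, 62% were higher, with a median of 0.07.

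Pumps, exchangers, anchors and other partners of the channels were described from a list of 50 genes, of which 29 were measured and 26 tested. None passed an adjusted p of 0.05 in limma, and 1 of the 26 had an unadjusted p under 0.05, beside 4.79% of all tested probe sets. This was Fgf12, a cytosolic partner of sodium channel pores, with signals of 188, 119, 192, 173 and 138 on deprived and 201, 224, 193, 228 and 235 on non-deprived arrays. Its difference was -0.40 ± 0.15 (SE; limma unadjusted p of 0.0172, adjusted p = 0.992). The groups did not overlap, by a narrow margin between 192 and 193, as for 0.953% of all tested probe sets. Ank3, the ankyrin that anchors channels at the axon initial segment, came next with 0.21 ± 0.10 (limma unadjusted p of 0.0638). Over the 26 genes, 9 log2 differences were above and 17 below 0, beside 52% above it over all tested probe sets, with a median of -0.04.

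For each list of markers of other cells, the ranges of the 2 groups overlapped. Summed signals ran from 20187 to 27788 on deprived and 18885 to 26849.9 on non-deprived arrays for 7 oligodendrocyte genes, from 5044 to 5385 on deprived and 4522 to 5287 on non-deprived arrays for 8 microglial genes and from 2070.3 to 2668 on deprived and 2023 to 2637 on non-deprived arrays for 8 vascular genes. For 4 choroid plexus genes they ran from 2691 to 4045 on deprived and 2672 to 3077 on non-deprived arrays, where Ttr and Kl lay below the filter, and for 6 cortical neuron genes from 28689 to 32821 on deprived and 30050.3 to 32283 on non-deprived arrays. Of the tested genes, 5 of 6 oligodendrocyte, 5 of 6 microglial, 4 of 7 vascular, 1 of 2 choroid plexus and 3 of 6 neuronal markers had log2 differences above 0, beside 52% of all tested probe sets. None had an adjusted p under 0.05 in limma and 1 (Igf2, of the choroid plexus list) had an unadjusted p under 0.05, beside 4.79% of all.

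Of the 67 channel genes, 52 had a promoter entry. The sequences printed for Kcnc1 and Cacna1b held 3 GC boxes each and none of the other 5 motifs, and their windows were 74.4% and 72% G or C. The cyclic AMP response element, which CREB binds, was in 1 of the 52 channel genes (Clcn4), 1.92% against 1.77% of all 27025 genes in the table, where a gene counts if any of its listed starts has the motif, so that genes with more starts have more chances. The printed Clcn4 sequence also held an E-box and a GC box, and the differences of Clcn4 were 0.02 and 0.0046. Another listed start of Clcn4 held none of the motifs. The AP-1 site was in 1 (Kcnk2, at only 1 of its listed starts), 1.92% against 5.16% of all genes. The EGR site was in 1 (Scn7a), 1.92% against 0.622%. The E-box was in 5 (9.62% against 6.86%) and the TATA box in 3 (5.77% against 14.3%). The GC box was in 32, 61.5% against 35.4%. The 27025 genes are not limited to the 8251 that the array names, so these shares compare unlike sets of genes. A GC box can overlap an EGR site. These counts describe letters in the sequence and not binding.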

How the data were processed

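The deposited values are intensities, which the submitters' processing notes say were made with MAS5, of a version that is not stated. In this table the mean of each array without its lowest and highest 2% of probe sets was between 500.25 and 500.27, so the arrays were already scaled, no further scaling was applied, and all differences are relative to the array average. The 66 control probe sets were left out. Symbols came from GEO's platform annotation, updated through Entrez IDs (10817 of 10833 single symbols matched).

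Values were tested as log2(signal + 16), 16 being the 10th percentile of the table, in limma 3.58.1 (R 4.3.3; lmFit, eBayes with an intensity trend, Benjamini-Hochberg over 7453 probe sets, no covariate), which was tested on simulated data. Per gene, the probe set with the highest mean stood for the gene. Adjusted p-values are from limma. Alternatives changed the pseudocount, filter, normalization and trend, added the replicate number as a block or left out single arrays. Named are the 20 smallest p, non-overlapping groups, other probe sets of these genes, a list of channels by role, Pvalb and 2 partners. Kcnh2, Kcns2, Kcna3, Kcnj11, Clcn1, Clcn5, Kcnd3, Syt2, Gad1 and Gad2 were added after their values were seen. The members and lists were chosen with earlier results of these data known. Probe set suffixes s, f and g mark shared sequences and r relaxed design rules. The precision is limited by the number of arrays.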

Additional observations from a re-analysis of the deposited data

Results flagged for a closer look

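For 7 of 98 groups of 5 arrays, 1 array of a channel probe set stood further from the others than Dixon's 95% limit allows, where chance gives about 1 in 20, or 4.9. In non-deprived cortex, Kcnh1 was 354 on replicate 4 against 456 to 494 on the other arrays, and Kcna3 was 131 on replicate 2 against 166 to 173. The second Kcnab2 probe set was 1307 on non-deprived replicate 5 against 1127 to 1168. In deprived cortex, Scn8a was 552 on replicate 2 against 830.1 to 953, Scn1a was 749 on replicate 5 of its dimmer probe set against 952 to 1018, and Kcnq1 was 408 on replicate 4 against 551 to 581. The brightest Clcn3 probe set was 6928 on deprived replicate 3 against 5399.7 to 5782. Each of the 7 values lay on a different array.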

How the results depend on the processing

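No channel probe set passed an adjusted p of 0.05 under any of the 18 alternatives, and the smallest adjusted p of a channel was 0.754. The count at an unadjusted p under 0.05, 2 as reported, was 5 with no signal filter, 1 when the filter was set at the 60th percentile, and 0 to 3 with single arrays left out. It was 1 without deprived replicate 1, deprived replicate 2 or non-deprived replicate 3, and 0 without non-deprived replicate 5; the cause was not tested. Under median scaling the count held but its members did not: Kcnab1 had a p of 0.0659 and Kcnk1 one of 0.0493. The median difference over tested channel genes lay between -0.019 and 0.033 under the other settings and between 0.003 and 0.04 without single arrays. The median channel deviation of single arrays had a within-group SD of 0.06, which is not the spread of a difference between groups. Over all tested probe sets, median scaling moved the median to -0.03.

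With the replicate number as a block, no channel passed, 3 (Kcnc1, Kcnab1 and Kcnk1) had an unadjusted p under 0.05 and the median was 0.01. Over all tested probe sets, calls at an adjusted p under 0.05 numbered 6 with the block against 0 as reported, 5 without non-deprived replicate 1, 2 with a pseudocount of 49, 2 with the filter at the 60th percentile, 1 without deprived replicate 4 and 0 under each other alternative; the smallest adjusted p as reported was 0.0503. Deviations of same-numbered arrays correlated at 0.14, 0.18, 0.22, 0.23 and 0.02, so the numbers, 1 of whose correlations is below 0.1, were not taken as pairs; all arrays but deprived replicate 5 correlated best with their own number.

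Of the 49 single differences, 23 kept their sign under all alternatives that included them and 26 did not, none of these larger than 0.24. Genes with several tested probe sets are named by their order of brightness. Under median scaling the sign turned for first Clcn3 -0.019, dimmer Clcn4 -0.016, brighter Clcn4 -0.028, dimmer Clcn7 -0.0038 and brighter Scn1a -0.0050, and under quantile normalization for brighter Kcnab2 0.020 and Kcnma1 0.0084. Without single arrays the ranges that crossed 0 were Clcn1 -0.50 to 0.042, first Clcn3 -0.051 to 0.070, second Clcn3 -0.10 to 0.055, dimmer Clcn4 -0.0093 to 0.044, brighter Clcn4 -0.066 to 0.062, Clcn5 -0.11 to 0.084, brighter Clcn7 -0.063 to 0.044, dimmer Clcn7 -0.10 to 0.11 and dimmer Hcn2 -0.015 to 0.39. They were also Hcn3 -0.064 to 0.11, brighter Kcnab2 -0.088 to 0.072, dimmer Kcnab2 -0.15 to 0.048, Kcna2 -0.042 to 0.17, Kcna3 -0.11 to 0.062, dimmer Kcnd2 -0.21 to 0.12, brighter Kcnd2 -0.098 to 0.037, Kcnh2 -0.15 to 0.022 and Cacna2d1 -0.12 to 0.18. The remaining ones were Cacnb2 -0.0099 to 0.26, Cacna1a -0.0059 to 0.26, Cacna1c -0.13 to 0.016, Kcnma1 -0.11 to 0.089, Kcnj11 -0.0024 to 0.33, Kcnk2 -0.072 to 0.027, brighter Scn1a -0.030 to 0.089 and dimmer Scn1a -0.065 to 0.057. Kcnc1 ranged from 0.34 to 0.51, Kcnab1 from 0.19 to 0.36, Kcnk1 from -0.53 to -0.28 and Cacna1b from 0.14 to 0.17 without single arrays.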
